A study of Mus musculus with 2 samples.

Results

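The Rab genes described here are the 58 entries of the deposited tables whose symbol is Rab followed by a number, with at most 1 letter and 1 further digit, out of 23343 genes in all. They were measured in poly(A) RNA of native bone marrow eosinophils, sorted as CCR3+ SiglecF+ cells from pooled marrow of untreated, naive C57BL6J mice. There were 2 independent sorts with 1 library each, called sort 1 and sort 2 after the numbers in their titles. Both belong to 1 group, and no genotype, treatment or second cell type was compared. The marrow of each sort was a pool, for which the sources used here give no number of mice. The spread between the sorts may be partly technical, and it also holds a difference in sex-linked RNA given below.

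Rab proteins are small GTPases that act as switches on the surface of vesicles and organelles. In the GTP-bound form they recruit effectors such as motors, tethers and fusion regulators. Exchange factors load GTP, activating proteins promote its hydrolysis, and GDP dissociation inhibitors draw the prenylated protein off the membrane. In granulocytes, Rabs of the secretory group are known for the release of preformed granules, and Rabs of early and late endosomes for the uptake and maturation of phagosomes and granules.

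Each member was placed in a class by its best known site of action. There were 13 secretory, 9 recycling, 10 endosomal, 16 ER and Golgi and 3 lysosome-related organelle Rabs. The remaining 7 act at cilia, in autophagy or at sites less well defined. Many Rabs work at several sites, so these classes are a convention. Levels are given in the deposited RPKM, read counts divided by the length of the transcript and the depth of the library, which allows genes of different length to be set side by side. A gene is called detected here where its RPKM reached 1 in each of the sorts.

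Sort 1 had 10087743 reads over all genes and sort 2 had 9264150. The markers that define the sorted cells were present, with Ccr3 at 116 ± 2.34 RPKM, Siglec5, the gene of SiglecF, at 32.2 ± 0.0656 and Il5ra at 52.9 ± 13.6 (SD, n = 2). The granule protein gene Prg2 had 911 and 1339 RPKM in sorts 1 and 2, and Epx, eosinophil peroxidase, had 77.4 and 104. All 9 eosinophil markers were detected, with summed levels of 2749 and 3539 RPKM in sorts 1 and 2. All 12 markers of neutrophils and their precursors were detected too, with summed levels of 4426 and 4198 RPKM, and none was at 0. Of 11 monocyte and macrophage markers 6 were detected, with sums of 253.6 and 182.5 RPKM, and of 11 basophil and mast cell markers 7, with sums of 32.4 and 34.9 and with Mcpt4 and Tpsb2 at 0 reads. B and plasma cell, T and NK cell, erythroid and megakaryocyte markers had sums of 2.98 to 11.8 RPKM, with 3 of 10, 1 of 9, 1 of 10 and 1 of 7 detected. How far such other cells contribute to the Rab levels below was not tested. In bulk samples fewer cells of a type and less RNA per cell cannot be told apart. The sorts also stood apart in sex-linked RNA, with 47487 and 5 reads of Xist and 0 and 756 reads of the Y-linked Kdm5d in sorts 1 and 2, and in the ribosomal RNA precursor Rn45s, with 914623 and 89209 reads. By its sex-linked reads sort 1 had RNA of female cells and sort 2 RNA of male cells. Sex and sort therefore cannot be told apart in the ratios and spreads below. Of the 4 X-linked Rab genes, Rab9 and Rab39b had enough reads for the test between sorts described below, with adjusted p-values of 0.0778 and 0.125.

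Of the 58 Rab genes 36, or 62.1%, were detected, against 30.2% of all genes. The median Rab level was 2.57 RPKM in sort 1 and 2.19 in sort 2, beside medians over all genes of 0.108 and 0.0896. A mean of at least 10 RPKM was reached by 9 Rab genes, or 15.5%, and by 6.20% of all genes. Together the Rab genes held 36795 reads, 0.365% of the reads of sort 1 (95% Wilson interval 0.361 to 0.368), and 36622 reads, 0.395% of sort 2 (0.391 to 0.399). Counting error alone enters these intervals, because reads that carry no molecular identifier need not come from separate molecules. The totals also hold the reads of Rn45s, 914623 in sort 1 and 89209 in sort 2. The denominators of the 2 shares are therefore unlike, and the gap between the shares is not a result about the Rab genes.

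The levels were unevenly spread over the family. The 5 highest members held 49.4% of the summed Rab RPKM in sort 1 and 54.2% in sort 2, and the same 5 genes, Rab7, Rab21, Rab27a, Rab44 and Rab2a, led in both. At the other end 6 members had no read in either sort, which allows up to 3 reads per library, and 7 had 1 to 9 reads over both sorts together. Across the 58 members the Spearman correlation of RPKM between the sorts was 0.979, a description over genes that share 2 libraries.

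**Figure D1:**
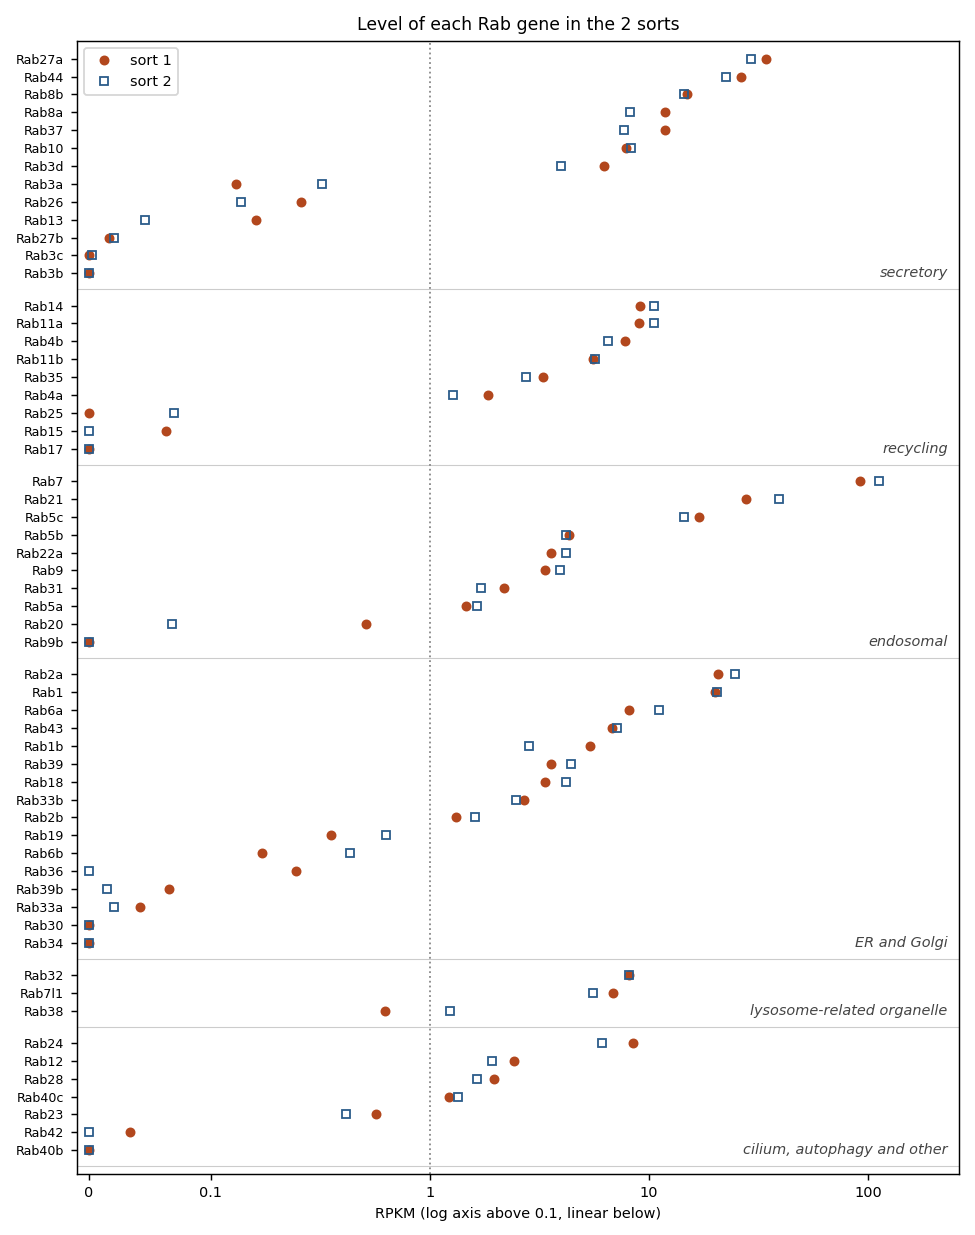
RPKM of each of the 58 Rab genes (horizontal axis, log above 0.1 and linear below) in sort 1 (filled circles) and sort 2 (open squares), grouped by class and ordered by mean level, with a dotted line at the detection minimum of 1. Rab7 lies highest at 91.1 and 112 RPKM, and secretory members fall into 7 of at least 3.98 RPKM in both sorts and 6 of at most 0.323 RPKM, with none between.

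Secretory Rabs were split between a high and a very low set. Rab27a, which docks granules at the plasma membrane, had 34.2 RPKM in sort 1 and 29.1 in sort 2, from 4113 and 3514 reads, and lay above 98.4% of all genes by its mean. Rab44, a large atypical Rab with a calcium-binding region that is known from mast cells and other bone marrow cells, had 26.1 and 22.4 RPKM. By reads it was the most abundant Rab transcript, with 4346 and 3726. The deposited coordinates on mm10 place Rab27a at chromosome 9 from 73044865 to 73097592 and Rab44 at chromosome 17 from 29135056 to 29148976, both on the plus strand.

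Next came the pair that carries vesicles to the plasma membrane, Rab8b with 14.9 and 14.4 RPKM in sorts 1 and 2 and Rab8a with 11.8 and 8.23. Rab37, a Rab of secretory granules in mast cells, had 11.8 and 7.66 RPKM. Rab10, which acts in exocytosis from the Golgi and from recycling compartments, had 7.85 and 8.29. Rab3d, the Rab3 form of non-neuronal secretory granules, had 6.20 and 3.98 RPKM. Rab27a, Rab44 and Rab8b came in this order within the class in both sorts. Rab8a, Rab37 and Rab10 lay so close in sort 2, between 7.66 and 8.29 RPKM, that their order there is not separated by the spread between the sorts.

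The other secretory members were scarcely found. Rab3a, the main Rab of synaptic vesicles, had 6 and 18 reads in sorts 1 and 2. Rab26 had 15 and 8 reads, Rab13 had 7 and 2, and Rab27b, the close relative of Rab27a, had 4 and 5. Rab3c had 1 read in sort 2 only, and Rab3b had none. In all 7 of 13 secretory Rabs were detected, and the same 7 remain at a minimum of 2 RPKM.

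Recycling Rabs had no member as high as the leaders of the other main classes. Rab14, which acts between the Golgi and endosomes, had 9.13 RPKM in sort 1 and 10.6 in sort 2. Rab11a, the defining GTPase of the recycling endosome, had 9.04 and 10.6 RPKM, and these levels of Rab14 and Rab11a differ by less than the spread between the sorts. Rab4b, of rapid recycling, had 7.77 and 6.504 RPKM and Rab11b 5.53 and 5.68. Rab35, which directs cargo back to the plasma membrane, had 3.30 and 2.76 RPKM and Rab4a 1.84 and 1.27. Rab25 with 0 and 3 reads, Rab15 with 8 and 0 reads and Rab17 with none were below detection. These 3 are known mainly from epithelia or, for Rab15, from neural tissue.

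Endosomal Rabs held the highest single value. Rab7, the GTPase of late endosomes and lysosomes, had 91.1 RPKM in sort 1 and 112 in sort 2, and made up 22.6% and 26.7% of the summed Rab RPKM. This value rests on an unusually short gene model. The row of Rab7 spans chromosome 6 from 88000435 to 88013690 on mm10, and its ratio of reads to RPKM implies a length of 625 bases. The matched GENCODE transcript is 2159 bases long with a coding length of 624 bases, so the row has a coding length and no room for the UTRs. No source used here says whether reads in the UTRs were counted for it. Rab7 had 2303 and 2830 reads, fewer than Rab27a and Rab44 in both sorts.

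With the annotated length in place of the implied one, the reads of Rab7 come to 26.4 and 32.4 RPKM in sorts 1 and 2, against 34.2 and 29.1 for Rab27a. The first place then differs between the sorts. On that scale Rab27a, Rab7, Rab44, Rab2a and Rab1 were the 5 highest by their mean. Rows shorter than 90% of the matched transcript were found for 7 of the 36 detected members, with Rab22a, Rab21 and Rab8a among them at 26.7%, 39.7% and 44.3% of the annotated length. Rows longer than 110% of the transcript were found for Rab24 and Rab27b. Rab24, at 160% of the annotated length, had 13.6 and 9.76 RPKM on that scale, against 8.49 and 6.10 as deposited. The order of Rab7, Rab21, Rab8a, Rab22a and Rab24 therefore depends on the gene model.

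Rab21, which acts on early endosomes and in integrin traffic, had 27.7 RPKM in sort 1 and 39.1 in sort 2, from 2044 and 2893 reads. Among the Rab5 proteins of early endosome fusion, Rab5c led with 16.9 and 14.5 RPKM, Rab5b had 4.32 and 4.17, and Rab5a had 1.46 and 1.64. The 3 Rab5 genes kept this order in both sorts, without overlap of their values. Rab22a had 3.56 and 4.18 RPKM, Rab9, of traffic from late endosomes to the Golgi, had 3.36 and 3.91, and Rab31 had 2.18 and 1.71. Rab20 with 15 and 2 reads and Rab9b with none were not detected, which left 8 of 10 endosomal Rabs detected. At a minimum of 2 RPKM 6 remain.

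In the early secretory pathway the leaders were Rab2a, of traffic between the Golgi and the ER, with 20.6 RPKM in sort 1 and 24.8 in sort 2, and Rab1, of export from the ER, with 20.04 and 20.4. Rab6a, of retrograde transport at the Golgi, had 8.09 and 11.04 RPKM, and Rab43 had 6.77 and 7.16. Rab1b, Rab39, Rab18, Rab33b and Rab2b were detected at means of 1.46 to 4.09 RPKM. Rab19, Rab6b, Rab36, Rab39b and Rab33a were below the minimum, and Rab30 and Rab34 had no reads, so 9 of 16 members were detected.

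Among Rabs of lysosome-related organelles Rab32 had 8.08 RPKM in sort 1 and 8.06 in sort 2, and Rab7l1, an older symbol of Rab29, had 6.86 and 5.56. Rab38, the partner of Rab32 in melanosome formation, had 0.626 and 1.23 RPKM. Of the last class, Rab24, which has been linked to autophagy, had 8.49 and 6.10 RPKM, while Rab12, Rab28 and Rab40c had means of 2.17, 1.80 and 1.28. Rab23, of ciliary signalling, had a mean of 0.492, Rab42 had 1 read and Rab40b none.

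Medians of the 3 main classes lay close together. On the log2(RPKM + 1) scale the secretory median was 2.85 in sort 1 and 2.32 in sort 2, the recycling median 2.10 and 1.91, and the endosomal median 2.16 and 2.33. The secretory median exceeded the recycling median by 0.58 ± 0.24 (SD, n = 2), with 0.74 in sort 1 and 0.41 in sort 2. Its difference from the endosomal median was 0.34 ± 0.50, with 0.69 in sort 1 and -0.017 in sort 2, so this difference is smaller than the spread between the sorts. Recycling minus endosomal gave -0.24 ± 0.26, also within that spread. These values use the deposited RPKM. With annotated transcript lengths secretory minus endosomal was 0.54 ± 0.28, with 0.74 in sort 1 and 0.35 in sort 2. Secretory minus recycling was then 0.70 ± 0.17 and recycling minus endosomal -0.15 ± 0.11, so each difference was larger than its SD.

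These differences depended on which genes were counted. When Rab44 was left out, the secretory median was lower than the recycling one, with a difference of -0.53, and lower than the endosomal one, with -0.77. This is not particular to Rab44. The median of the 13 secretory genes is the level of Rab3d, the lowest of the 7 detected ones in both sorts. Leaving out any other of these 7 moves the median to the same place. With core members alone, where the secretory class is the Rab3 and Rab27 genes with Rab26 and Rab37, the differences were -2.09 and -2.03. Among detected members only, secretory minus endosomal was 1.11 and recycling minus endosomal was 0.54. The classes hold different genes, and members are not replicates, so no test was made over them. An exact sign test over 2 sorts cannot give a two-sided p below 0.5.

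**Figure D2:**
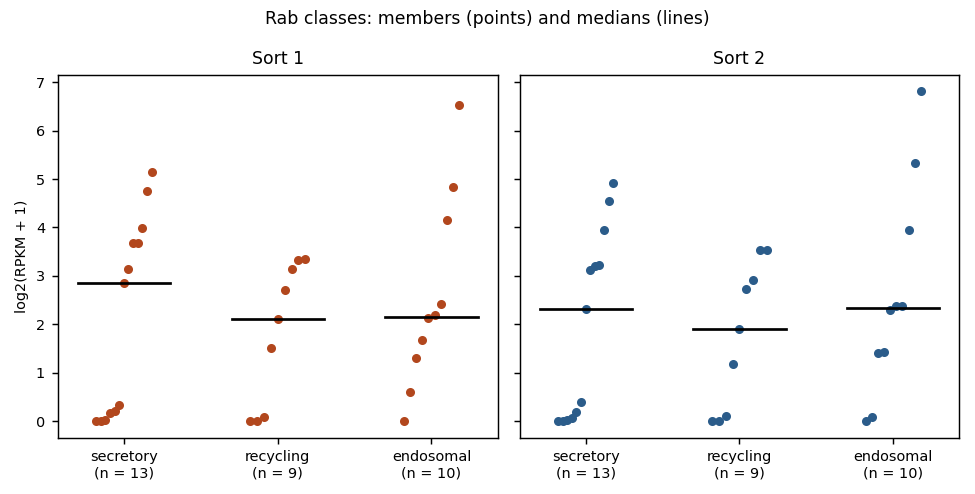
Levels on the log2(RPKM + 1) scale of the 13 secretory, 9 recycling and 10 endosomal Rabs in sort 1 (left) and sort 2 (right). Each point is a gene and each line a class median; the medians lie between 1.91 and 2.85, and each class has members at 0 and members well above its median.

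The summed levels of the classes depended on Rab7. Secretory members held 28.1% of the Rab RPKM in sort 1 and 22.6% in sort 2, recycling members 9.07% and 8.92%, and endosomal members 37.4% and 43.2%. Without Rab7 the shares were 36.2% and 30.8% for secretory, 11.7% and 12.2% for recycling, and 19.1% and 22.5% for endosomal members. By reads, which weight long transcripts more, secretory members held 42.0% and 36.1%, recycling members 11.2% and 11.9%, and endosomal members 18.8% and 22.2%. Recycling members had the lowest share of the 3 classes on each of these scales in both sorts. These shares are sums, and the recycling class is also the smallest, with 9 genes beside 10 endosomal and 13 secretory ones.

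Within most subfamilies 1 member held most of the transcript. Rab27a exceeded Rab27b by 4.998 ± 0.16 on the log2(RPKM + 1) scale (SD, n = 2). Rab2a exceeded Rab2b by 3.26 ± 0.05, with a linear ratio of 15.7 in sort 1 and 15.3 in sort 2, and Rab6a exceeded Rab6b by 3.01 ± 0.08. Rab3d exceeded Rab3a by 2.29 ± 0.54, and Rab39 exceeded Rab39b by 2.26 ± 0.22. Rab32 exceeded Rab38 by 2.25 ± 0.33. Rab9 had 197 and 230 reads in sorts 1 and 2, against none of Rab9b.

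Rab2b was detected as well as Rab2a, and in other subfamilies more than 1 member was detected too. Rab1 exceeded Rab1b by 2.10 ± 0.53, Rab4b exceeded Rab4a by 1.68 ± 0.07, and Rab5c exceeded Rab5b by 1.66 ± 0.12 and Rab5a by 2.71 ± 0.21. The closest partners were Rab8b and Rab8a, with a difference of 0.53 ± 0.30, and Rab11a and Rab11b, with 0.71 ± 0.12. For the Rab8 pair the row of Rab8a is short, so the small gap depends on the gene model. Rab22a exceeded Rab31 by 0.73 ± 0.30 with the deposited RPKM, but with annotated lengths Rab22a had 0.951 and 1.12 RPKM in sorts 1 and 2, against 2.19 and 1.71 for Rab31. In each of the 19 pairs compared the first named member was higher in both sorts by the deposited RPKM; which member came first was chosen from these levels, so this direction is a description.

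**Figure D3:**
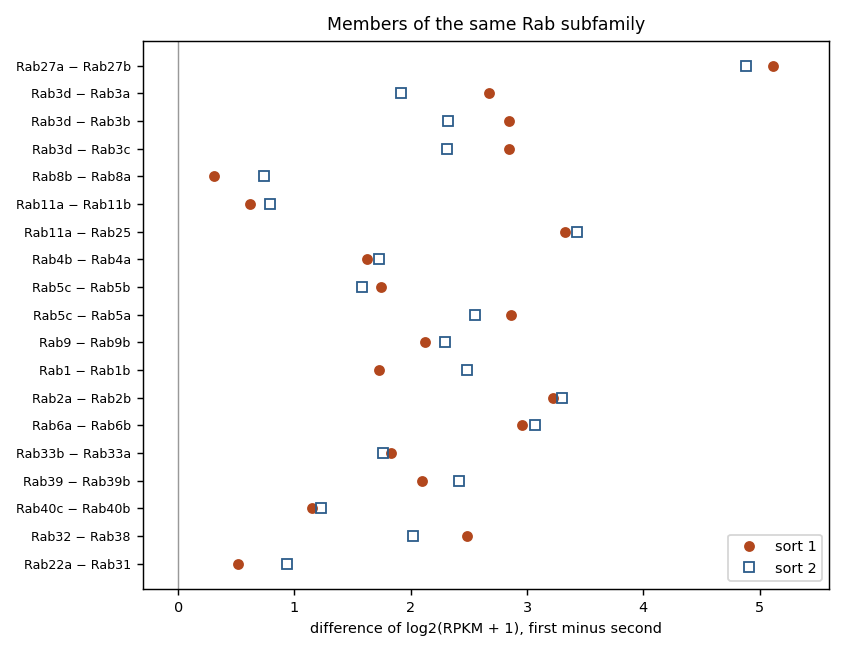
Difference of log2(RPKM + 1) between members of the same or a closely related Rab subfamily, first minus second, in sort 1 (filled circles) and sort 2 (open squares). Rab27a minus Rab27b is farthest right at 5.11 and 4.88, and Rab8b minus Rab8a is nearest to 0 at 0.31 and 0.74.

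Genes that act on Rabs were set beside them, from 6 lists with 120 different genes. Of these 73 were detected. Of 7 genes of prenylation and membrane extraction 6 were detected, with medians of 5.68 and 6.29 RPKM in sorts 1 and 2. Gdi2, which recycles Rabs between membranes and cytosol, had 26.7 and 32.4 RPKM. The escort protein Chm, which presents Rabs for prenylation, had 6.03 and 8.39 RPKM, and Rabggtb, a subunit of the prenylating enzyme, had 6.46 and 7.32. The exception was Chml, the relative of Chm, with 0.501 and 0.628 RPKM.

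Of 30 exchange factors 18 were detected, with medians of 2.10 and 1.96 RPKM. Rin3, an exchange factor for Rab5 proteins, had 70.1 RPKM in sort 1 and 60.6 in sort 2, the highest value among the 120 genes. Dennd1c, of a family acting on Rab35, had 24.2 and 17.4 RPKM and Dennd5a 17.6 and 16.3. Of 35 GTPase-activating proteins 23 were detected, with medians of 2.16 and 1.85. Tbc1d10c had 33.2 and 23.4 RPKM, Tbc1d8 16.7 and 15.9, and Rabgap1l 13.7 and 14.7.

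Effectors of the secretory class were few. Only 3 of 14 were detected, with medians of 0.0199 and 0.0355 RPKM, while 8 of 12 recycling effectors and 15 of 22 endosomal effectors were. The 3 were Unc13d, or Munc13-4, a Rab27a effector that primes granules for fusion, with 10.03 RPKM in sort 1 and 8.32 in sort 2, the Rab27 effector Sytl1 with 9.49 and 7.68, and the motor Myo5a with 3.25 and 4.06. Myrip, Mlph and Rims1 had no reads. These 14 genes include several known mainly from neurons and melanocytes. Recycling effectors were led by the exocyst subunit Exoc6 with 14.8 and 14.4 RPKM, the Rab11 effector Rab11fip1 with 11.9 and 11.7, and Zfyve27 with 5.20 and 4.22. Endosomal effectors were led by Plekhm1 with 9.89 and 8.34, Fyco1 with 5.83 and 8.26, both binding Rab7, and the lipid kinase Pik3c3 with 6.61 and 7.14.

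**Figure D4:**
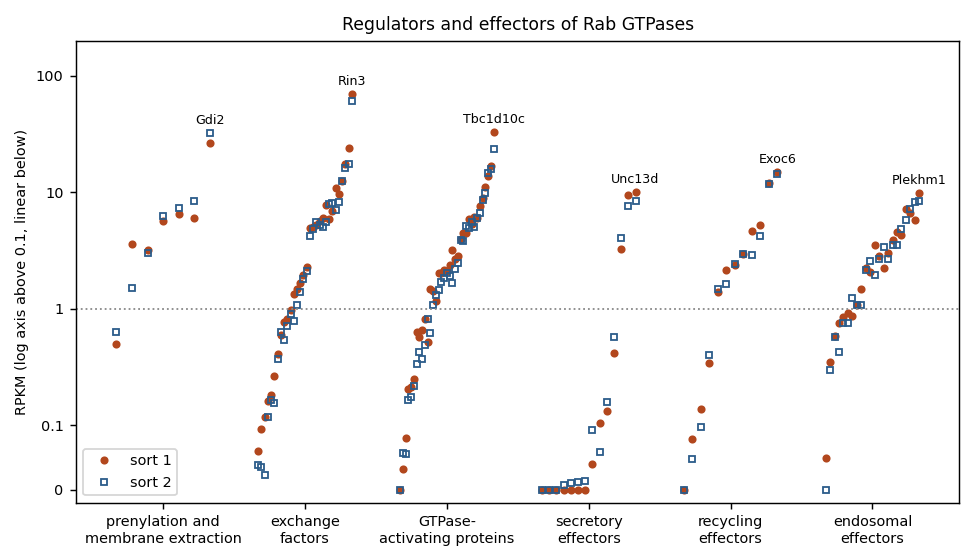
RPKM (vertical axis, log above 0.1 and linear below) of genes that regulate or bind Rab proteins, by list, in sort 1 (filled circles) and sort 2 (open squares), ordered by mean within a list, with the leading gene named and a dotted line at 1 RPKM. Rin3 is highest at 70.1 and 60.6 RPKM, and 11 of the 14 secretory effectors lie below 1.

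Rab levels were then compared between the sorts. For each of the 12347 genes whose summed reads over the sorts came to 10 or more, reads were compared by an exact binomial test, two-sided, with Benjamini-Hochberg adjustment. Calls needed an adjusted p under 0.05 together with a minimum fold of 2. The test sets the 2 libraries against counting error and does not compare conditions. Since the sorts differ in sex-linked RNA, sex and sort cannot be told apart in its calls. Of the 45 Rab genes with enough reads 5 were called, or 11.1%, beside 7.95% of all genes tested. Of the 5, 2 were higher and 3 lower in sort 1, beside 4.9% and 3.05% of all genes. All 5 were below the detection minimum in at least 1 sort. None of the 36 detected members was called, and for 35 of them the ratio was under 1.5-fold. The same shares over all detected genes were not computed, so these 2 counts are not a result about the Rab genes. Over genes with at least 100 reads in all, the median size of the log2 ratio was 0.28 for 39 Rab genes and 0.27 for 8777 genes.

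The called members had few reads. Rab36, of the Golgi, had 26 reads in sort 1 and 0 in sort 2 (adjusted p = 2.78e-07, exact binomial test). It was 8.27-fold higher in sort 1 when sort 2 was set to a limit of 3 reads and the 26 reads were taken as exact. The counting interval of its log2 ratio began lower, at 2.65. Rab20, a Rab of phagosomes, had 15 and 2 reads, a log2 ratio of sort 1 over sort 2 of 2.04 with a counting interval of 0.73 to 6.01. Rab6b had 33 and 83 reads with a ratio of -1.35, Rab3a 6 and 18 reads with -1.38, and Rab38 40 and 79 reads with -1.01. In the exact test of edgeR, whose dispersion came from these same 2 libraries treated as replicates, Rab36 alone of the 45 was called, with an adjusted p of 0.00519, and the other adjusted p-values of the called members were 0.427 to 0.885. By that test 0.267% of all genes were called, and 3 Rab genes had an unadjusted p under 0.05. The difference between the sorts itself enters that dispersion, so the test is no independent check of the calls.

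Without a minimum fold 22 of the 45 Rab genes had an adjusted p under 0.05 in the exact binomial test, 9 higher and 13 lower in sort 1, beside 44.4% of all genes. Rab21 had 2044 reads in sort 1 and 2893 in sort 2, a log2 ratio of -0.57 (interval -0.65 to -0.49, adjusted p = 2.84e-41). Rab7 had a ratio of -0.36 and Rab6a of -0.52. Of the 7 detected secretory genes 5 had a ratio above 0, beside 16 of all 36 detected Rab genes. They had 0.57 for Rab3d, 0.56 for Rab37, 0.45 for Rab8a, 0.16 for Rab27a and 0.15 for Rab44, while Rab10 had -0.15 and Rab8b -0.03. Of 9 tested endosomal genes 3 were above 0, Rab20, Rab31 with 0.28 and Rab5c with 0.15. After the GC trend described next was subtracted, 6 of the 7 secretory genes were above 0, since the ratio was then -0.11 for Rab44, 0.05 for Rab10 and 0.30 for Rab8b. No count over all detected members was made after that step, so these 6 have no share beside them. Markers of other cells also differed between the sorts. Of 10 tested monocyte and macrophage markers 5 were called, beside 7.95% of all genes tested. The 4 higher in sort 1 were C1qa, C1qb, C1qc and Cd163, the last with 163 reads in sort 1 and 35 in sort 2. Cx3cr1 was called lower in sort 1, with 2 and 26 reads. Of the markers not called, Ccr2 had a log2 ratio of -0.91, and Lyz2, Csf1r, Ly6c2 and Vcam1 were above 0. Among neutrophil markers none of the 12 was called, and the ratios went both ways around a median log2 ratio of -0.006. Ltf had 0.75, Ngp 0.68, Lcn2 0.61 and Camp 0.60, while Ctsg had -0.49, Elane -0.46, Mpo -0.18 and Retnlg -0.14. S100a9 and Mmp8 were also above 0, and S100a8 and Prtn3 below it. Of 10 erythroid markers 3 were called, each lower in sort 1 and each below the detection minimum in at least 1 sort, beside the same 7.95%. They were Slc4a1 with 37 and 125 reads, and Hba-a1 and Hba-a2 with 14 and 32 reads each. The counts of Hba-a1 and Hba-a2 are identical, so these may not be separate calls. Alas2, with 28 and 13 reads, went the other way and was not called. The part of these cells in the Rab ratios was not tested. The largest ratio among detected members was 0.84 for Rab1b, with 398 and 211 reads.

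These small ratios moved with the base composition of the transcripts. Over the 39 Rab genes with at least 100 reads in all, the Spearman correlation of the log2 ratio with GC content was 0.557, beside 0.539 over 8680 genes, where genes share the same 2 libraries. Rab11a, at the lowest GC content of 39.5%, had a ratio of -0.30, and Rab1b, at 58.9%, the ratio of 0.84 given above. After a trend on GC content was subtracted, the median size of the ratio over these Rab genes was 0.22 in place of 0.28, and 4 of the 5 calls remained, Rab38 falling under the minimum fold. Of the genes that act on Rabs, 110 were tested and 3 were called, or 2.73%, each higher in sort 1, beside 4.9% of all genes called in that direction. They were Rabac1 with 126 and 53 reads, Tbc1d17 with 155 and 65, and Dennd2a with 21 and 4. None of the 3 was called by the edgeR exact test, with adjusted p-values of 0.652, 0.643 and 0.400.

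**Figure D5:**
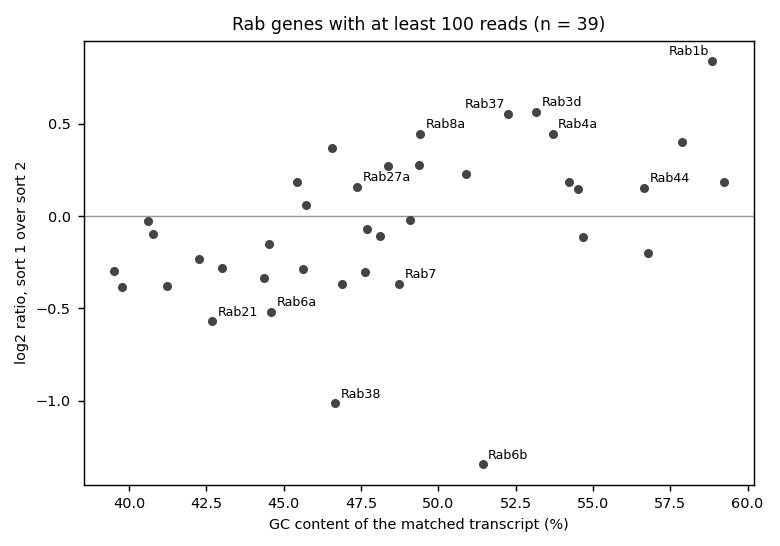
Log2 ratio of sort 1 over sort 2 against the GC content of the matched transcript (percent) for the 39 Rab genes with at least 100 reads in all; each point is a gene. Points at low GC content lie mostly below 0 and points at high GC content mostly above it, with Rab1b at 58.9% and 0.84 the highest and Rab6b at 51.4% and -1.35 the lowest.

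Of the 58 members 6 came from several rows of the tables, which differ in their start or end. For Rab37 the row starting at position 115154178 of chromosome 11 had 1050 reads in sort 1 and 681 in sort 2, and the row starting at 115091431 had none in either. For Rab23 the rows had 49 reads each in sort 1 and 36 each in sort 2, equal to the read. For Rab43 the row starting at 87809754 of chromosome 6 had 700 and 1251 reads in sorts 1 and 2, and the row starting at 87811779 had 514 and 0. The summed reads of Rab43, 1214 and 1251, gave an adjusted p of 0.108 in the exact binomial test. How the counting divided reads between overlapping rows is not stated in the labels, so these rows do not give reads unique to a start.

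The promoters of the Rab43 starts are shown because the deposited reads were divided differently between these starts in the 2 sorts. They are RefSeq sequences on GRCm38.p6, minus strand, 250 bases before to 50 after the start, written 5′ to 3′ with each CG in capitals. The inner one lies at chr6:87809708-87810007, with its start 3 bases from that of the row, and the outer one at chr6:87811730-87812029.
Rab43 inner start: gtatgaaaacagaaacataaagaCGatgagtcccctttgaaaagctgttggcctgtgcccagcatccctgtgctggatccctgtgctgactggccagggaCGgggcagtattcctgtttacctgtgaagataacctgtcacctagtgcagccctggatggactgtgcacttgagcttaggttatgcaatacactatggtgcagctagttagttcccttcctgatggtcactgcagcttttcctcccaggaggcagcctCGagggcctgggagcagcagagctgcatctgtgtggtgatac
Rab43 outer start: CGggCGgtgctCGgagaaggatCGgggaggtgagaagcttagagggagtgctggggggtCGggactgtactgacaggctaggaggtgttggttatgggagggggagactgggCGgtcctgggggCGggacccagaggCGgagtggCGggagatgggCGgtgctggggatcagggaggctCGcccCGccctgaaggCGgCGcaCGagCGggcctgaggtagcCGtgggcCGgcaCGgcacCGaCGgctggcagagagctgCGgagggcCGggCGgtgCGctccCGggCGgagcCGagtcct
The inner promoter held 3 CG and a GC content of 53.0%, and the outer one 28 CG and 72.3%, beside a median of 7 CG over 32851 promoters of the same length. At least 28 CG were found in 14.2% of those promoters and at least 3 in 76.7%. The letters AGATAA, read on both strands as a GATA motif, occurred once in the inner promoter, at position 128 counted from its 5′ end, and not in the outer one. They are found in 11.2% of all promoters. The letters GAGGAA, the core of motifs of the PU.1 family, also occurred once in the inner promoter and not in the outer one, and in 28.3% of all promoters.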

How the data were processed

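Stranded poly(A) libraries, made with dUTP per the labels' protocols, were sequenced for 2 sorts. Reads were aligned with STAR 2.4.0c to mm10, per the submitters' processing notes. The authors deposited whole-number read counts and RPKM values per RefSeq transcript, those of identical start and end being merged. The sources used here name neither the counting program nor its strand setting. The ratio of the deposited counts to RPKM implied divisors of 40.4 and 40.5, in units of 1000000 reads, more than the reads in the tables.

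Counts and RPKM of 26099 rows were summed by gene symbol. The members and lists were chosen with earlier results of these data known. Library sizes were scaled by TMM in edgeR 4.0.16. Ratios used a prior count of 2, levels a pseudocount of 1. The binomial test (scipy 1.17.1) was tested on simulated data with counting error alone. That run does not cover the further spread between these 2 libraries. Beside it edgeR's exact test was run, because edgeR's quasi-likelihood test needs residual degrees of freedom. For GC content and lengths, all 58 members had a GENCODE transcript with the same RefSeq accession. Promoters were found for 46. All members were accounted for; full values were given for those with a mean of at least 10 RPKM, class leaders and called members, and for the 3 highest genes and called genes of each list of genes that act on Rabs. For 1 gene, results are not reported here.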

Additional observations from a re-analysis of the deposited data

How the results depend on the processing

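Alternatives included other minimums, pseudocounts, scalings, filters, folds and tests, and leaving out each sort. Using annotated transcript lengths, scaling RPKM to the total of the tables and leaving out Rab44 were chosen after seeing the data. Detection counts stayed within 1.5 times their value under each alternative. Class differences did not: secretory minus endosomal was -0.52 with means in place of medians, -2.03 with core members, 1.11 with detected members and -0.77 without Rab44, and -0.017 to 0.69 with a sort left out. Secretory minus recycling was 0.29 with means, -2.09 with core members and -0.53 without Rab44, and 0.41 to 0.74 with a sort left out. Recycling minus endosomal was -0.81 with means, 0.064 with core members and 0.54 with detected members, and -0.42 to -0.052 with a sort left out. In these settings other genes or another summary enter by construction. With annotated transcript lengths the differences were 0.54, 0.70 and -0.15, in the same order.

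Calls between the sorts were 5 of 45 Rab genes and 981 of 12347 genes. They were 2 and 475 with at least 50 reads, 22 and 5481 with no minimum fold, and 1 and 33 by the edgeR exact test. With a fold of at least 1.5 they were 6 and 2246. Calls of all genes were 605 higher and 376 lower in sort 1 with TMM. With no filter on reads 6 Rab genes were called, the added one being Rab15 with 8 and 0 reads. Among called members, 4 lost the call by the edgeR exact test and Rab38 after the GC trend was subtracted, and 3 had too few reads for the test with at least 50. No direction changed among those with a value. No value of these calls can be had with a sort left out. RPKM recomputed with lengths from the files was not run, since the files give none; with deposited RPKM scaled to the total of the tables the class differences were 0.39, 0.68 and -0.29, in the order above, and 39 Rab genes were detected. No paired analysis was possible because there is 1 group. Depth limits members with few reads.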
